A study of Homo sapiens with 4 samples.

Results

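The genes described here are the intergenic long noncoding RNAs with a symbol of the LINC type that gave a clear signal in U266, a human multiple myeloma cell line of plasma cell type. Of 542 LINC symbols on the array, 78 had a mean log2 value of at least 6 over the 4 arrays, and these 78 were taken as detected. They were selected on the measured level over control and treated arrays together, so that their level is not a result, and near the limit a change between the groups could decide whether a gene was taken. Control U266 cells (2 arrays), called untreated in the sample labels and given PBS by the protocol, were compared with U266 cells exposed to trabectedin, a DNA minor groove binder used against sarcoma and ovarian cancer, for 24 h (2 arrays). The sample labels and the study's results give the dose as 2.5 nM, whereas the treatment protocol and the methods give 2.5 μM. All cells were maintained in the same serum-containing medium, and no cell line other than U266 is on these arrays. By the methods the cells came from 2 different experiments, and the sources used here do not say whether arrays with the same replicate number share one.

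Long intergenic noncoding RNAs are transcribed by RNA polymerase II, capped, usually spliced and mostly polyadenylated like messenger RNAs, but they carry no long open reading frame. Many stay in the nucleus, have low levels and are turned over by the nuclear RNA exosome with its adaptor complexes. A LINC symbol is a placeholder that is replaced once a function, a neighbour or a coding potential is known, so that the class is mixed by construction. Trabectedin is known to block transcribing RNA polymerase II at its DNA adducts.

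RefSeq on GRCh38.p14 had an entry for 78 of the 78 symbols, 14 of them under another name, and held 71 as lncRNA, 4 as protein coding and 3 as pseudogenes. LINC00152 is now CYTOR, LINC00884 is ATP13A3-DT, LINC00893 is EOLA1-DT and LINC00969 is MIR570HG. The symbols LINC00341, LINC00610, LINC00444 and LINC00083 resolve to the coding genes SYNE3, COMMD9, SUCLA2 and CLEC20A, and 3 LINC00266 copies resolve to septin 14 pseudogenes. The label of an intergenic noncoding RNA thus does not hold for these 7 symbols by present annotation, and 8 of the 78 overlapped a protein-coding gene in RefSeq. The median gene length was 15.98 kb, from 0.45 kb (LINC00515) to 417.7 kb (LINC00504), and 56 had 1 RefSeq transcript. All chromosomes with members held between 1 and 9 of them, with 9 on chromosome 7. Just inside the level limit were LINC00610 and LINC00701 (mean log2 value 6.01 each) and LINC00654 (6.08), and just outside were LINC02901 and LINC01599 (5.97 each) and LINC00880 (5.94). Of the 78, 68 were at or above 6 on each of the 4 arrays, while 6 had a control mean and 2 a trabectedin mean below 6 and passed the limit through the other group.

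The 300 bases around the start site, 250 before and 50 after, were held by the RefSeq table for 53 of the 78. Those of the LINC genes that differed by at least 1.5-fold between the groups are shown to make visible how unlike their starts are. Capitals mark the CG pairs, the letters at which cytosine can be methylated. They lie on GRCh38.p14 at chr10:126421830-126422129 (LINC00601, minus strand), chr14:50007471-50007770 (LINC01588, minus strand), chr18:5237850-5238149 (LINC00667, plus strand) and chr19:27793891-27794190 (LINC00662, minus strand), and are printed 5′ to 3′ on the strand of the gene.
LINC00601: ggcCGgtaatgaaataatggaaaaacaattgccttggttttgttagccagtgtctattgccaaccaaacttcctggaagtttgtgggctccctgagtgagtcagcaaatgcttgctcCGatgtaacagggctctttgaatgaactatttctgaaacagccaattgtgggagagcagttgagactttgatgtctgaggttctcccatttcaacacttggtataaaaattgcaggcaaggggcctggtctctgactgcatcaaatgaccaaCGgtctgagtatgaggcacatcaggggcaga
LINC01588: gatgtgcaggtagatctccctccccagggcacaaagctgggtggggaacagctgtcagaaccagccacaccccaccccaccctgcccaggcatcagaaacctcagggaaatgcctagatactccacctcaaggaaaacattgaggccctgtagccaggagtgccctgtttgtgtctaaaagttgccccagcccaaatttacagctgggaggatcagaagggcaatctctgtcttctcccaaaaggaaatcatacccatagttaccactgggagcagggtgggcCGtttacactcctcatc
LINC00667: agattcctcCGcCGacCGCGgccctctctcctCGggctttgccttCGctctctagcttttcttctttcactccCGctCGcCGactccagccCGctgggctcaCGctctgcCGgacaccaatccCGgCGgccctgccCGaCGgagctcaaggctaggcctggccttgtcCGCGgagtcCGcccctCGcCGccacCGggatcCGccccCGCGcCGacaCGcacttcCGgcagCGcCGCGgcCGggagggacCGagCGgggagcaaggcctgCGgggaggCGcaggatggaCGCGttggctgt
LINC00662: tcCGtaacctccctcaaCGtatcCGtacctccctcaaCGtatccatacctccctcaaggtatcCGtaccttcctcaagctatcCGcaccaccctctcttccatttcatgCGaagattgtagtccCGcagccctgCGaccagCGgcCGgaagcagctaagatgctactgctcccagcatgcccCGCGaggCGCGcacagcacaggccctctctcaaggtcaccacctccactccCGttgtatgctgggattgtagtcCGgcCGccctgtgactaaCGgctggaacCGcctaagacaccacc
LINC01588 had 1 CG pair in 300 bases and LINC00601 had 3, whereas LINC00662 had 20 and LINC00667 had 38. The first pair is poor in CG, as is common in promoters of tissue-restricted genes, and LINC00667 is dense in it. LINC00601 also has the TATA box letters TATAAA. Promoter sequences of LINC00504, LINC00342, LINC00469 and LINC01192, the others with a difference of this size, were not used here.

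A second set of starts is shown because the members read alike on the arrays. LINC01001 (chr11:131804-132103), LINC01002 (chr19:202160-202459) and LINC01061 (chr4:119410611-119410910), all on the minus strand of GRCh38.p14, are given below with the letters that lie in a 15-base word common to all 3 in capitals.
LINC01001: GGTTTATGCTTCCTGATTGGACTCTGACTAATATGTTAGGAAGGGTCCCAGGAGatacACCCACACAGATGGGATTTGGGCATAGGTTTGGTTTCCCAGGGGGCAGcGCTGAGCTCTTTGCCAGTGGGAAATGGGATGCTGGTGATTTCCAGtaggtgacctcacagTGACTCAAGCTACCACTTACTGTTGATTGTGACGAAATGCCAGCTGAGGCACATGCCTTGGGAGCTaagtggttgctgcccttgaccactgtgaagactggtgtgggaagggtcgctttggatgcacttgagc
LINC01002: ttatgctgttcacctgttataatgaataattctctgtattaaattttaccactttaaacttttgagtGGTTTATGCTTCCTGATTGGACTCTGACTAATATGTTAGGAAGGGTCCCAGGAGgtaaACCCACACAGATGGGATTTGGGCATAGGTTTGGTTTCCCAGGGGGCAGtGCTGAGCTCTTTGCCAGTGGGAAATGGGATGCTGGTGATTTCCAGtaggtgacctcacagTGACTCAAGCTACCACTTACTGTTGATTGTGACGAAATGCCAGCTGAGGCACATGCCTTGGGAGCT
LINC01061: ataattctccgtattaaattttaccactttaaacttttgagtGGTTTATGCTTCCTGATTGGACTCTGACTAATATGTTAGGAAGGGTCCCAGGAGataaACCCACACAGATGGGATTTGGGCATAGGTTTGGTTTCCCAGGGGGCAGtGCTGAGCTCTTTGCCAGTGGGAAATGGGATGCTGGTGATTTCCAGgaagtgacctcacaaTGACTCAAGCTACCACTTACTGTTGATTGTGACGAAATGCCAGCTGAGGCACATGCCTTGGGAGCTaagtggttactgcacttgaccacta
Of the 300 letters, 213 were shared in this sense in each of the 3. By pairs, 65.0% of the 15-base words of LINC01001 and LINC01002 were shared, 58.7% of those of LINC01001 and LINC01061, and 72.4% of those of LINC01002 and LINC01061. Of these 300 bases, 250 lie before the start site, and no probe or transcript sequence was compared. Whether the 3 genes share probes was not tested, so that their values may not be independent.

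Over the 53 promoters, the median GC content was 58.3% and the median ratio of observed to expected CG pairs was 0.61. The 330 promoters of LINC genes below a mean of 6 had medians of 48.7% and 0.28, and all 27305 promoters together had 58.3% and 0.58. The detected LINC genes were thus nearer to the table as a whole than to the LINC genes below the limit, as a description. That table mixes 11462 lncRNA promoters (medians 50% and 0.28) and 15843 protein-coding promoters (62.7% and 0.76), and the 53 lay between these. The 53 include the promoters of the coding genes SYNE3, COMMD9, SUCLA2 and CLEC20A. Counting both strands, TATAAA was found in 2 of the 53 (3.77%, against 11.95% of all promoters), CCAAT in 24 (45.3%, against 35.7%), GGGCGG, the letters bound by SP1, in 23 (43.4%, against 44.6%), and CACGTG, the E-box of MYC and related factors, in 6 (11.3%, against 7.43%). None of these letter matches is evidence of binding.

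The arrays gave 22465 genes with 1 symbol, of which 10925 had a mean of at least 6. The authors' log2 values exceeded 16, the limit of a 16-bit scanner, for 843 to 899 features of each array, so that they were rescaled in a step that none of the sources describes. Of 10 plasma cell markers, 9 were at or above 6, the exception being CD27, while 0 of 9 measured markers of other blood and stroma cells were. The sum of the 10 plasma cell log2 values was 113.2 and 111.8 in control and 111.1 and 110.7 with trabectedin. The sum of the 9 others was 42.1 and 43.3 in control and 43.2 and 43.9 with trabectedin. Of the 9 plasma cell markers at or above 6, 4 were higher and 5 lower with trabectedin, and 0 passed the limma test. XBP1 and IRF4 had the lowest log2 fold changes (-0.78 and -0.80, adjusted p = 0.176 and 0.424), and SLAMF7 (0.30) and CD38 (0.18) the highest. The part of cell composition or cell state in the results below was not tested. In bulk RNA, fewer cells of a kind and less RNA per cell cannot be told apart.

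Trabectedin-treated and control arrays were then compared for the detected LINC genes. Their median log2 fold change was -0.06 (36 higher, 42 lower) beside 0.10 over all genes. Differences of 1.5-fold or more were on the lower side in 7 LINC genes and on the higher side in 1. By limma with Benjamini-Hochberg adjustment over 22465 genes, 0 of the 78 passed at an adjusted p under 0.05, as did 0 of all genes (0% in either direction). This fit did not pair arrays by replicate number, and the calls of a fit that did are given at the end. At an unadjusted limma p under 0.05, 6 of the 78 were higher (7.69%) and 13 lower (16.7%), against 7.3% and 6.69% of all genes and 11.2% and 12.3% of genes with a mean of at least 6. LINC02878 and LINC00662 among the higher, and LINC00494 among the lower, passed the level limit only through the group where they were high. For a single gene, the smallest two-sided p of an exact permutation test in this design is 0.333. The labels call the samples biological replicates, and the p-values measure only the spread between these 4.

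At least 1.5-fold higher were 1 of 78 LINC genes (1.28%), against 2.79% of all genes and 4.89% of genes with a mean of at least 6. At least 1.5-fold lower were 7 (8.97%), against 4.63% and 8.84%. The share of lower LINC genes was thus close to that of other genes of this level. Both trabectedin arrays lay above both control arrays in 19 LINC genes (24.4%). This held for 35.8% of all genes and 33.4% of genes with a mean of at least 6. They lay below both in 20 LINC genes (25.6%), against 13.5% and 20.8%. Among the 19, LINC00610, LINC00520, LINC00202-2, LINC02878 and LINC00662 had control means below 6 and passed the level limit through the treated arrays. Among the 20, LINC00494 and LINC00654 had trabectedin means below 6 and passed it through the control arrays. Without control replicate 1, 6 LINC genes were higher and 5 lower by 1.5-fold, against 3.5% and 4.69% of all genes. Their median was then 0.10, beside 0.06 over all genes. Without control replicate 2, 1 was higher and 16 lower, against 5.68% and 5.71% of all genes. Without trabectedin replicate 2, 5 were higher and 10 lower, against 5.05% and 5.46%. After a repeated quantile normalization the counts were 0 higher and 8 lower, against 1.63% and 5.41%. After scaling to ribosomal protein genes they were 0 higher and 15 lower, against 0.98% and 6.65%.

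**Figure D1:**
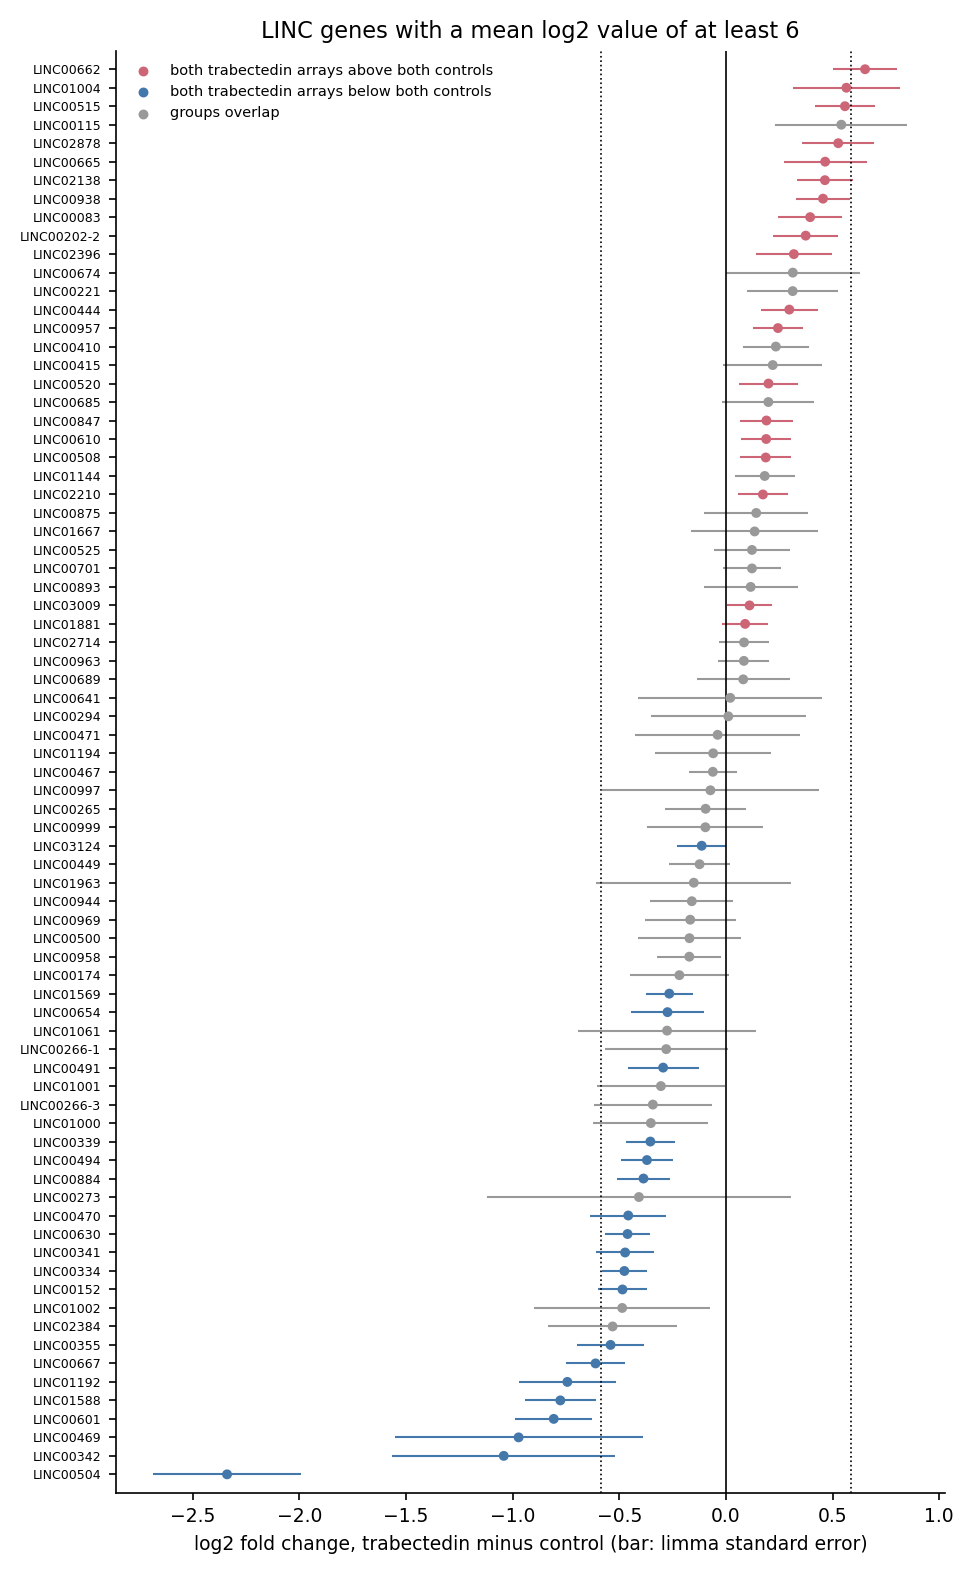
Log2 fold change (trabectedin minus control) of the detected LINC genes, 1 per row in rank order, with the limma standard error as the bar. Colours mark whether the 2 trabectedin arrays lie above, below or among the 2 control arrays, and dotted lines mark 1.5-fold; LINC00504 stands alone at -2.34, and the 1 Y-linked pseudogene copy is left out.

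LINC00504, a lncRNA with a RefSeq gene of 417.7 kb on chromosome 4, had the largest difference of the 78. The control arrays read log2 11.16 (replicate 1) and 10.27 (replicate 2), and the trabectedin arrays 8.13 (replicate 1) and 8.61 (replicate 2), the order kept below. The groups were 1.65 apart at their nearest arrays, which is wider than the gap within either group. The log2 fold change of -2.34, a 5.06-fold lower value, had a standard error of 0.35 and an adjusted p = 0.0931 by limma, and it ranged from -2.78 to -1.89 when each array was left out.

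LINC00342 and LINC00469 followed, but the size of each difference depended on control replicate 1. In both genes replicate 1 was above replicate 2 in control and with trabectedin. LINC00342, on chromosome 2, had log2 values of 8.17 and 6.71 in control and 6.69 and 6.10 with trabectedin. LINC00469, on chromosome 17, had 9.69 and 7.94 in control and 7.91 and 7.78 with trabectedin. The nearest arrays of the groups differed by 0.02 and 0.03, while the gap between the control arrays was larger than the fold change in both. Their log2 fold changes were -1.04 and -0.97 (limma adjusted p = 0.455 and 0.520), and without control replicate 1 they were -0.31 and -0.10.

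In the other 4 LINC genes at least 1.5-fold lower, the groups were separated by 0.35 to 0.50 on the log2 scale. LINC00152, LINC00334 and LINC00630, lower by less than 1.5-fold, had separations of 0.39, 0.42 and 0.43. LINC00601, on chromosome 10, had log2 values of 7.63 and 7.42 in control and 6.52 and 6.92 with trabectedin (log2 fold change -0.81 with a standard error of 0.18, limma adjusted p = 0.167). LINC01588, on chromosome 14, had 7.74 and 7.51 in control and 6.68 and 7.01 with trabectedin (-0.78, standard error 0.17, adjusted p = 0.162). These have the CG-poor starts printed above. LINC01192, on chromosome 3, had 7.52 and 6.94 in control and 6.37 and 6.60 with trabectedin (-0.74, standard error 0.23, adjusted p = 0.263). LINC00667, on chromosome 18 and with the CG-rich start, had 7.45 and 7.60 in control and 6.79 and 7.04 with trabectedin (-0.61, standard error 0.14, adjusted p = 0.173). In all 4 the control arrays were both high and the trabectedin arrays both low. LINC00667 has a second transcript cluster, with a mean of 5.90, whose log2 fold change was 0.00, so that its probes disagree, and the average of the clusters gave -0.31.

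LINC00662, on chromosome 19, was the 1 LINC gene at least 1.5-fold higher. Its log2 values were 5.88 and 5.72 in control and 6.60 and 6.31 with trabectedin, so that it entered the list through the treated arrays. The groups did not overlap, and the log2 fold change was 0.65, or 1.57-fold, with a standard error of 0.15 and a limma adjusted p = 0.171. Without trabectedin replicate 1 it was 0.51 and without control replicate 2 it was 0.58, both below the 1.5-fold limit.
The next values on this side, named after they were seen, were 0.56 for LINC01004 and 0.56 for LINC00515. LINC00515, the shortest gene of the list, had log2 values of 6.80 and 6.61 in control and 7.38 and 7.15 with trabectedin. LINC00115 had a log2 fold change of 0.54 with overlapping groups, since control replicate 2 (7.74) lay above trabectedin replicate 1 (7.67).

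**Figure D2:**
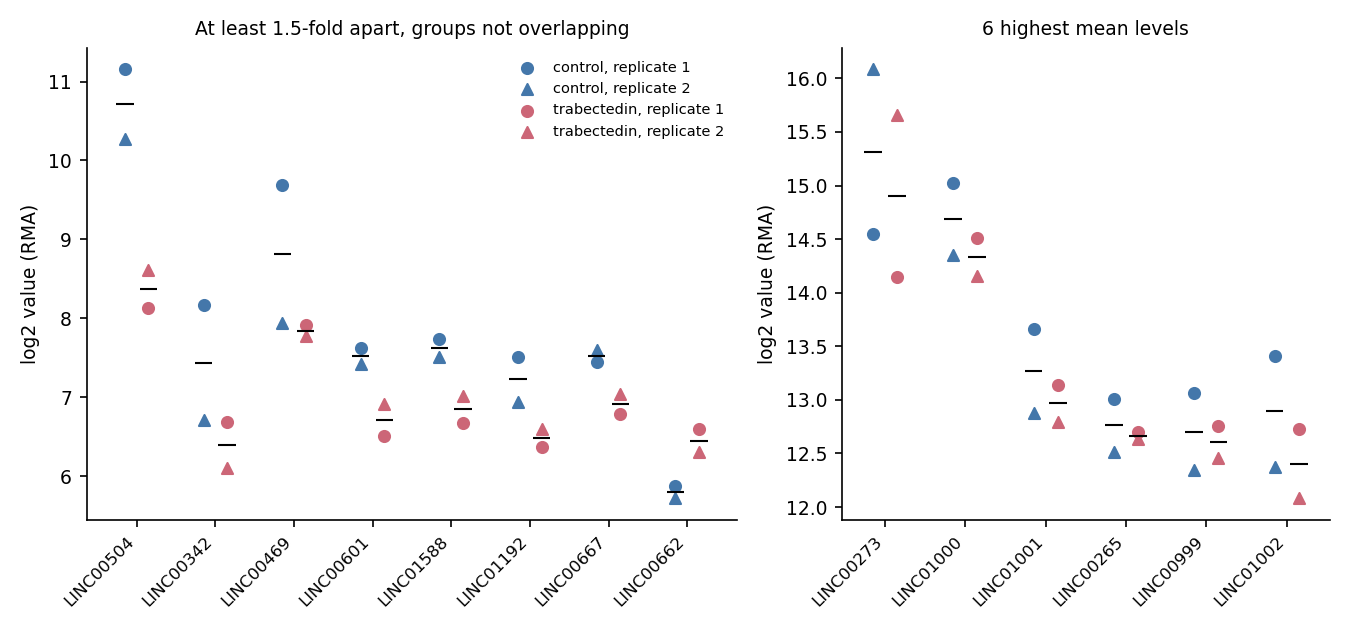
RMA log2 values of each array for the 8 LINC genes at least 1.5-fold apart with non-overlapping groups (left) and for the 6 with the highest mean (right), with circles for replicate 1, triangles for replicate 2 and a line at each group mean. LINC00504 is clear of its control arrays, LINC00342 and LINC00469 touch theirs within 0.03, and LINC00273 splits by replicate number rather than by treatment.

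The LINC genes with the highest levels gave no difference beyond the spread of their arrays. LINC00273, a gene of 1.39 kb on chromosome 16, had log2 values of 14.54 and 16.08 in control and 14.15 and 15.66 with trabectedin. The arrays of replicate 2 were higher by 1.54 in control and by 1.51 with trabectedin, whereas the log2 fold change was -0.41 (limma adjusted p = 0.804). A second cluster of the same symbol had a mean of 4.88. LINC01000, on chromosome 7, had 15.02 and 14.35 in control and 14.51 and 14.16 with trabectedin, and LINC00999, on chromosome 10, had 13.06 and 12.35 in control and 12.75 and 12.46 with trabectedin. LINC00265, on chromosome 7, had 13.01 and 12.52 in control and 12.70 and 12.64 with trabectedin. In these 3 genes control replicate 1 was the highest array. Control replicate 1 was also the highest array in the genes with look-alike starts. LINC01001 had 13.66 and 12.88 in control and 13.14 and 12.79 with trabectedin. LINC01002 had 13.41 and 12.37 in control and 12.73 and 12.08 with trabectedin. LINC01061, which lies outside the 6 highest and is named for its sequence, had 12.47 and 11.36 in control and 11.92 and 11.36 with trabectedin. Replicate 1 was above replicate 2 in both groups of each. The log2 fold changes of LINC01001, LINC01002, LINC00265 and LINC00999 turned from negative to positive without control replicate 1.

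The same split ran through the list. The value of replicate 1 was higher than that of replicate 2 in 58 of the 78 in control and in 47 with trabectedin, and the difference had the same sign in both groups in 59. The median difference (replicate 2 minus replicate 1) was -0.22 in control and -0.07 with trabectedin. It was 0.05 and 0.02 over all genes, and -0.03 and -0.02 over genes with a mean of at least 6. The median size of the gap was 0.29 in control and 0.26 with trabectedin for the LINC genes. For all genes it was 0.16 and 0.15, and for genes with a mean of at least 6 it was 0.19 and 0.20. The fold change was larger than both gaps in 28 LINC genes (35.9%). This held for 36.1% of all genes and 42.2% of genes with a mean of at least 6. It also held for 4 of the 23 LINC genes with a mean of at least 9, for which no share over other genes was taken. Among these strongly signalling genes were LINC00997, with gaps of -1.18 and -0.98 and a log2 fold change of -0.07, LINC01963 (-0.65 and -1.20, log2 fold change -0.15) and LINC00641 (-0.96 and -0.86, log2 fold change 0.02), named after their values were seen.

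**Figure D3:**
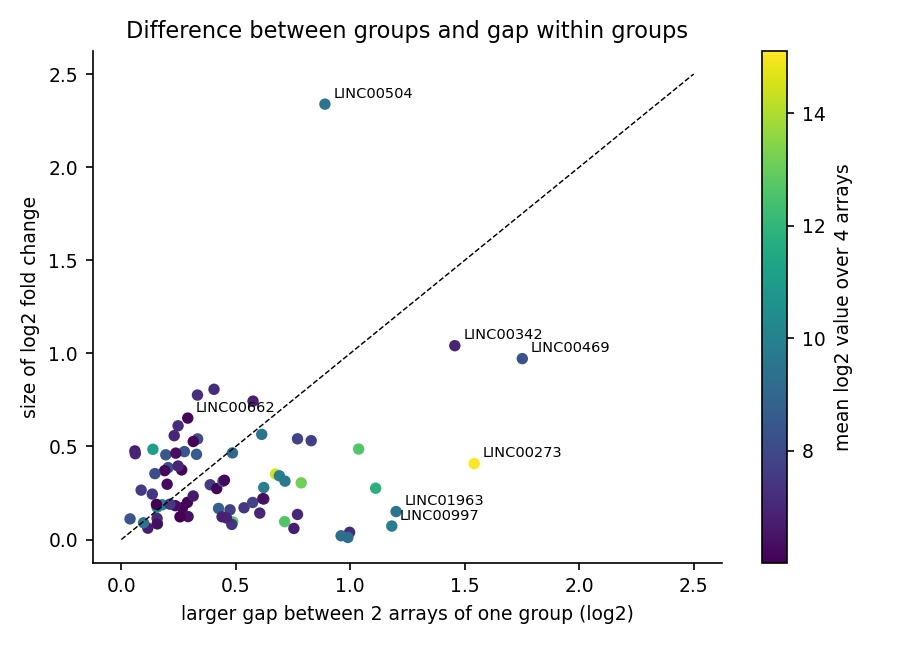
Size of the log2 fold change (vertical) against the larger of the 2 gaps between arrays of one group (horizontal) for each detected LINC gene, coloured by mean log2 value, with a dashed line where both are equal. Points below the line differ less between groups than between arrays of one group; LINC00504 lies far above it, and LINC00342, LINC00469 and LINC00273 below it.

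Of 32 LINC genes on a list of better known members, 12 were detected under a LINC symbol. LINC00152 (CYTOR), a mainly cytoplasmic RNA that is high in many carcinomas, had log2 values of 11.32 and 11.27 in control and 10.74 and 10.88 with trabectedin. The groups were 0.39 apart, and the log2 fold change was -0.48 with a standard error of 0.11 (limma adjusted p = 0.181). LINC00630, on chromosome X, had 7.21 and 7.21 in control and 6.72 and 6.78 with trabectedin (-0.46, standard error 0.10, adjusted p = 0.171), so that the arrays of each group lay close together. LINC00341 had 8.75 and 8.48 in control and 8.12 and 8.17 with trabectedin (-0.47, adjusted p = 0.251). Its RefSeq gene SYNE3, a nesprin of the outer nuclear membrane, has a cluster of its own on the array with a log2 fold change of -0.44 and non-overlapping groups. LINC00339 was lower by a smaller margin, with 8.37 and 8.22 in control and 7.92 and 7.96 with trabectedin (-0.35, adjusted p = 0.287).
On the higher side were LINC00665, a lncRNA on chromosome 19, with 9.14 and 8.65 in control and 9.43 and 9.29 with trabectedin (0.47, adjusted p = 0.388), and LINC00938, with 8.36 and 8.23 in control and 8.65 and 8.85 with trabectedin (0.46, adjusted p = 0.236). LINC00847 had 7.57 and 7.35 in control and 7.68 and 7.62 with trabectedin (0.19, adjusted p = 0.552). The groups of these 3 did not overlap. LINC00963 (0.08), LINC00893 (0.12), LINC00467 (-0.06) and LINC00969 (-0.17) had overlapping groups. LINC00667 is the 12th and is described above.

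The fold changes were then set against gene length. Of the 17 LINC genes over 50 kb, 13 were lower, 10 of them with non-overlapping groups and 3 by at least 1.5-fold (17.6%), and the median log2 fold change was -0.29. Of all 3236 genes of this length with a mean of at least 6, 2372 were lower, 1758 of them with non-overlapping groups, and 896 were lower by at least 1.5-fold (27.7%). The other 4 of the 7 LINC genes at least 1.5-fold lower were shorter than 50 kb. Among the 17, LINC00341 and LINC00444 were given the lengths of the coding genes SYNE3 (109.4 kb) and SUCLA2 (58.6 kb). The median was 0.03 for 32 genes of 10 to 50 kb (16 lower) and 0.02 for 29 genes under 10 kb (13 lower). Protein-coding genes with a mean of at least 6 had medians of -0.24 over 50 kb (3140 genes), 0.17 from 10 to 50 kb (4243 genes) and 0.19 under 10 kb (1835 genes). Spearman's rho between length and log2 fold change was -0.33 across the 78 LINC genes and -0.30 without LINC00504, beside -0.56 across 9218 protein-coding genes. These are descriptions across genes of the same 4 arrays, and genes are not independent replicates. Without control replicate 1 the median over the 17 long LINC genes was -0.10.

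Single long genes differed from one another. After LINC00504, the longest were LINC01194 (230.3 kb), LINC00630 (195.4 kb) and LINC01192 (126.1 kb). LINC01194, named for its length, had log2 values of 7.17 and 6.42 in control and 6.65 and 6.82 with trabectedin, so that its groups overlapped (log2 fold change -0.06). LINC00508 (99.9 kb) was at 0.19, with both trabectedin arrays above both controls. LINC00355 (89.6 kb) had a log2 fold change of -0.54 and LINC00470 (91.3 kb) of -0.46, both with non-overlapping groups. Among short genes, LINC00601 (8.01 kb) and LINC00667 (8.41 kb) were lower by at least 1.5-fold, as were 9 of the 1835 protein-coding genes under 10 kb (0.49%).

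**Figure D4:**
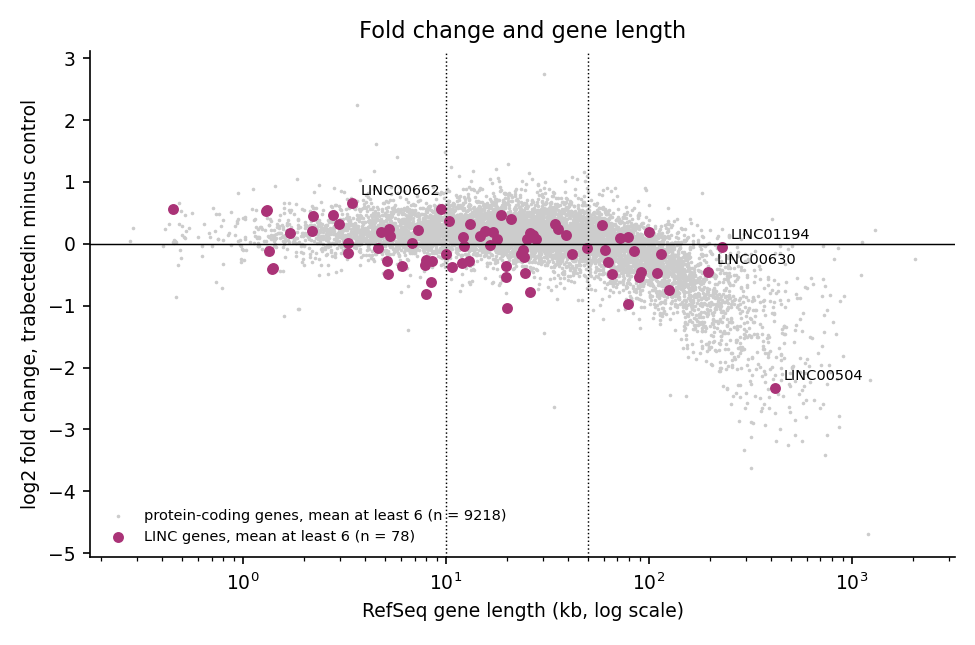
Log2 fold change (trabectedin minus control) against RefSeq gene length on a log scale for the 78 detected LINC genes (coloured) and 9218 protein-coding genes with a mean of at least 6 (grey), with dotted lines at 10 and 50 kb. The LINC genes lie within the grey cloud, with medians of 0.02, 0.03 and -0.29 from the shortest to the longest class.

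The nearest protein-coding gene was compared for each LINC gene. LINC00341, LINC00610, LINC00444 and LINC00083 were placed at the coding genes to which they resolve. In 38 pairs the neighbour had a mean of at least 6, and both fold changes had the same sign in 21 of the 38 (Spearman's rho 0.19 across pairs, as a description). CPEB2, a cytoplasmic polyadenylation element binding protein 114.3 kb from LINC00504, had log2 values of 11.30 and 11.59 in control and 11.20 and 11.11 with trabectedin. Its log2 fold change of -0.29 (limma adjusted p = 0.452) was of the same sign as that of LINC00504 and smaller. ARF6, a small GTPase of membrane traffic 84.6 kb from LINC01588, was at 0.20 with overlapping groups, and C10orf90, 3.12 kb from LINC00601, was at -0.19. The nearest genes of LINC00469 (SDK2, a cell adhesion molecule), LINC01192 (OTOL1) and LINC00667 (AKAIN1) had means below 6, and those of LINC00342 and LINC00662 had no value used here.
Several pairs, named after their values were seen, went opposite ways. LINC00083, placed at the coding gene CLEC20A, overlaps RASAL2, a Ras GTPase-activating protein with a gene of 384.8 kb. LINC00083 had 6.89 and 6.67 in control and 7.30 and 7.05 with trabectedin (log2 fold change 0.39). RASAL2 had 7.82 and 7.55 in control and 5.68 and 6.13 with trabectedin (-1.78, limma adjusted p = 0.0765). LINC00938 (0.46) lies 1.79 kb from ARID2, a subunit of the PBAF chromatin remodelling complex, which was at -0.54 with non-overlapping groups. Pairs of one sign were LINC00500 (-0.17) with SLC7A11, the cystine transporter (-0.93), and LINC00266-3 (-0.34) with DUSP22, a phosphatase (-0.90). The control and treated arrays of both neighbours did not overlap, whereas those of LINC00500 and LINC00266-3 did. The RefSeq gene of LINC00500 is LINC00499, whose own cluster went the other way. It had a mean of 4.61 and a log2 fold change of 0.33 with non-overlapping groups.

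**Figure D5:**
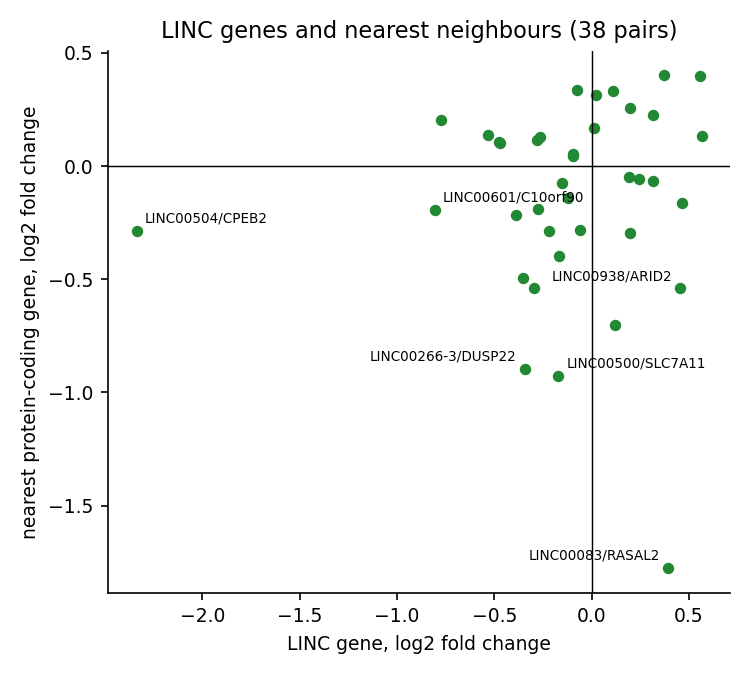
Log2 fold change of 38 detected LINC genes (horizontal) against that of the nearest protein-coding gene with a mean of at least 6 (vertical), 1 point per pair. Of the 38 pairs, 21 lie in the quadrants where both have the same sign. LINC00504 with CPEB2 and LINC00083, placed at the coding gene CLEC20A, with RASAL2 lie farthest out.

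Other noncoding RNAs with names of their own were set beside the LINC genes. Of 45 on the list, 18 had a mean of at least 6, CYTOR among them. Their median log2 fold change was 0.10, with 13 higher, 5 lower and 0 at 1.5-fold in either direction. Highest were EPB41L4A-AS1 (0.58, non-overlapping groups, adjusted p = 0.459), NORAD, which binds PUMILIO proteins (0.48, overlapping groups), and TP53TG1 (0.45, non-overlapping groups). TP53TG1 and PARTICL, both among the 13 higher, had control means of 5.87 and reached the level limit through the treated arrays. Lowest beside CYTOR were TUG1 (-0.27, overlapping groups) and RPPH1, the RNA of RNase P (-0.08, non-overlapping groups). Over all other lncRNA genes with a mean of at least 6, 300 in number, the median was 0.10, with 13 higher and 10 lower by at least 1.5-fold. Over the 464 LINC genes below the limit it was 0.10, with 4 higher and 3 lower.

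Genes of nuclear RNA decay, which shorten the life of many lncRNAs, were looked at as a list. It also holds DIS3L, DCP1A, DCP2 and XRN1, which act in the cytoplasm. Of 30 on the list, 29 were measured, each with a mean of at least 6, and 22 were higher and 7 lower, with a median log2 fold change of 0.17 beside 0.10 over all genes. Of all 10925 genes with a mean of at least 6, 6977 were higher and 3948 lower. By limma 0 passed the adjusted test. The highest were SRRT, the ARS2 subunit that links the cap to decay (0.58, adjusted p = 0.229), DIS3, the catalytic exosome subunit (0.56, adjusted p = 0.191), and EXOSC8, a core exosome subunit (0.55, adjusted p = 0.239), each with non-overlapping groups. DIS3 had log2 values of 10.78 and 11.05 in control and 11.47 and 11.47 with trabectedin.
The 1 gene at least 1.5-fold lower was ZCCHC7, a subunit of the nucleolar TRAMP-like complex with a gene of 238.0 kb, with 7.85 and 7.99 in control and 6.75 and 7.21 with trabectedin (-0.94, adjusted p = 0.142). MTREX, the helicase that feeds RNA into the nuclear exosome, had 11.83 and 11.72 in control and 11.31 and 11.35 with trabectedin (-0.45, adjusted p = 0.193), and XRN1, the cytoplasmic 5′ exonuclease, was at -0.37 with overlapping groups. Whether the levels of these genes bear on those of the LINC RNAs was not tested.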

How the data were processed

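U266 cells, untreated (n = 2) or exposed to trabectedin (n = 2), were profiled on Affymetrix Human Transcriptome Arrays 2.0. The authors processed the arrays by RMA in Affymetrix Expression Console and deposited log2 values per feature, while no source used here names the tool's version, the annotation or the later rescaling. RNA was extracted with TRIzol per the labels and with a column kit per the methods. The number of arrays limits the precision.

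Of 70523 features, 23781 had 1 symbol in the platform annotation, 1543 had several and were left out, and where a gene had more than 1 cluster (479 of 22465), that of highest mean stood for it. LINC symbols were matched to RefSeq (GRCh38.p14) by Entrez number (55), symbol (9) or older symbol (14), and start sequences come from RefSeq. LINC00685 has an X and a Y cluster with equal values and was counted once. The comparison of groups used limma 3.58.1 (R 4.3.3), with no block and over all genes, after a test of the fit on simulated data.

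Named were LINC genes at least 1.5-fold apart with non-overlapping groups, the 6 of highest mean, those on the list of known LINC genes, the nearest protein-coding genes of the first kind, and the 3 highest and lowest of the other lists. The members and lists were chosen with earlier results of these data known. Alternatives left out each array, set the replicate number as a block, normalized again by quantiles, took 47 ribosomal protein genes as the scale, kept genes above the median level, averaged clusters, let the variance follow the mean, applied the methods' t-test, and set the level limit to 5 or 7 and the fold limit to 2.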

Additional observations from a re-analysis of the deposited data

How the results depend on the processing

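By limma 0 LINC genes and 0 genes in all passed in the comparison as reported. With the replicate number as a block, 5 LINC genes (3 higher, 2 lower) and 1388 genes passed, among them LINC00504 (adjusted p = 0.0271), LINC00662 (0.0359) and LINC00667 (0.0382). LINC00662 and LINC02878, which make up 2 of the 3 higher, had control means below 6 and were in the list through the treated arrays, so that their calls do not bear on the list. The differences between replicates of the same group correlated at 0.56 over all genes and 0.62 over the LINC genes, but the sources do not say that a number marks a shared experiment. The methods' t-test called 7 LINC genes and 2400 genes before and 0 after Benjamini-Hochberg adjustment. Scaling to ribosomal protein genes, which shifted the median of all genes by -0.16, called 59 genes, and repeated quantile normalization shifted it by -0.10. When each array was left out, limma called 0 to 237 genes and 0 LINC genes, in a fit where the lone array of a group is assumed to vary like the other group, so that these counts say nothing about stability. The count of LINC genes at least 1.5-fold higher was 1 as reported, 1 to 6 without each array, 0 after repeated quantile normalization, ribosomal scaling, a level of at least 7 or a 2-fold limit, and 2 at a level of at least 5. The count lower was 7 as reported, 5 to 16 without each array, 15 after ribosomal scaling and 2 at a 2-fold limit. Of all genes, 2.79% were higher as reported, 3.5% to 5.68% without each array, 0.98% after ribosomal scaling and 0.18% at a 2-fold limit. In the same order, 4.63%, 4.5% to 5.71%, 6.65% and 2.03% of all genes were lower. The median log2 fold change of the LINC genes was -0.06 as reported, -0.12 to 0.10 without each array and -0.22 after ribosomal scaling. It was 0.11 at a level of at least 5 and -0.16 at a level of at least 7. The median over LINC genes longer than 50 kb was -0.29 as reported and -0.46 to -0.10 without each array. The cause of these shifts was not tested.

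Of 275 values of 25 named LINC genes under the alternatives, 14 changed sign. Without each array, the range was -1.18 to 0.36 for LINC00273, -0.70 to 0.088 for LINC01001, -0.34 to 0.15 for LINC00265, -0.45 to 0.26 for LINC00999, -1.004 to 0.032 for LINC01002, -0.38 to 0.045 for LINC00969 and -0.11 to 0.35 for LINC00893. LINC00893 was at -0.045 after ribosomal scaling, and LINC00963 was at -0.027 after repeated quantile normalization and -0.077 after ribosomal scaling. An array's signal does not tell a low RNA level from background. With 4 arrays and no block, differences under the gaps between arrays could not be told from that spread.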
